A study of Mus musculus with 18 samples.

Results

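The 40 genes described here encode the enzymes, transporters and regulators of glycolysis and of the pentose phosphate pathway. They were chosen by name, with no measured value in the rule but with earlier results of these data known. All 40 were in the RNA table of 26599 genes. The RNA came from MEL, a mouse erythroleukemia line whose cells take up the program of red cell precursors when dimethyl sulfoxide (DMSO) is added. Day 0 cultures had no DMSO and day 5 cultures had been in 2% DMSO for 5 days, with 2 biological replicates each, per the labels. Most but not all treated cells stained for hemoglobin, also per the labels. Cells kept for 5 days without DMSO are not among the samples analysed here, so treatment and time in culture cannot be told apart. MEL is 1 transformed line and keeps dividing without hormone, which limits it as a model of normal red cell precursors.

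Glycolysis splits glucose into pyruvate and yields ATP without oxygen. Dividing cells turn much of that pyruvate into lactate and export it. The pentose phosphate pathway leaves glycolysis after the hexokinase step, and it supplies NADPH for reductive work and ribose for nucleotides. Mature red cells have no mitochondria and live on glycolysis alone. They also hold bisphosphoglycerate, a side product of glycolysis that lowers the oxygen affinity of hemoglobin, and inherited lack of pyruvate kinase or of glucose phosphate dehydrogenase makes them lyse.

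The 4 RNA libraries had between 10227 and 10601 genes at 1 FPKM or more (fragments per kilobase and per unit of library size, a level per length that can be compared between genes). Read depth is not given by FPKM and so is unknown. All 8 erythroid marker genes were higher on day 5 (limma adjusted p under 0.05), against 10.7% of all tested genes. Their summed level was 1722 and 1054 FPKM at day 0 against 32344 and 30477 at day 5. Slc4a1 and Epb4.2 reached the filter for testing (1 FPKM in 2 libraries) only through day 5, so their calls are no separate support. Of 12 myeloid markers 7 were listed at 0 in all 4 libraries, among them Csf1r, Mpo and Lyz2. Of the 4 tested 3 fell, against 7.81% of all tested genes. One of these, Fcgr2b, reached the filter only through day 0. The myeloid list summed to 102 and 148 FPKM at day 0 against 6.31 and 10.6 at day 5, mostly Sfpi1 and Coro1a. Of 7 megakaryocyte markers 1 of 4 tested (25.0%) rose (Itga2b), against 10.7% of all tested genes. This list summed to 57.8 and 18.3 against 139 and 112 FPKM. Lymphoid markers (6) summed to 5.86 and 2.23 at day 0 and were listed at 0 at day 5, and fibroblast markers (5) to 150.2 and 142 against 9.79 and 6.33, nearly all of it Vim. The part of these shifts in the results below was not tested. In such bulk RNA, fewer cells with a transcript and less of it per cell cannot be told apart.

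Together the 40 genes held 1.15% and 0.829% of all FPKM at day 0 against 0.522% and 0.507% at day 5. Of the 40, 36 reached 1 FPKM in at least 2 libraries and were tested, and 11 fell, 1 rose and 24 did not pass (limma on log2(FPKM + 1), Benjamini-Hochberg adjusted p under 0.05 over 10736 genes). Among all tested genes 7.81% passed downward and 10.7% upward, 18.5% in all. The 11 that fell were Slc2a1, Hk2, Gpi1, Pgam1, Pkm2, Pklr, Ldha, Slc16a1, Slc16a3, Pgd and Tkt, and Bpgm rose. The median log2 fold change was -0.80 over the 36 genes and 0.15 over all tested genes. By role, 6 of 17 tested glycolysis enzymes fell (median -1.03), as did 3 of 4 transporters (-1.11) and 2 of 7 pentose phosphate genes (-0.34). Of 7 regulators, the Pdk and Pfkfb genes, 0 passed (0.24; 3 had an unadjusted p under 0.05). Both day 5 libraries lay below both day 0 libraries for 23 of the 36 genes and above them for 7, against 27.0% and 40.2% of all tested genes. Hk3, Pgam2 and Ldhb were listed at 0 in all 4 libraries, and Aldoc, an aldolase of brain, lay between 0.285 and 1.29 FPKM, so these 4 were not tested.

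These calls rest on 2 libraries a day. With any 1 library left out, the calls of the 36 were lost in limma, as were nearly all calls over all tested genes. Without day 0 replicate 1 the median log2 fold change was -0.54 over the 36 genes and 0.19 over all tested genes. Without day 0 replicate 2 it was -0.83 and 0.11. It was -0.78 and 0.15 without day 5 replicate 1, and -0.74 and 0.16 without day 5 replicate 2. With no filter on low values 0 of the 36 passed as well, with 12 lower and 4 higher at an unadjusted p under 0.05. Over all 15168 genes of that limma fit 117 passed downward and 120 upward, and 1666 and 2359 did so unadjusted. Gpi1, Pkm2 and Tkt also missed the threshold with quantile normalization (limma adjusted p of 0.0748, 0.0662 and 0.0662). These 3 genes, Slc16a1 and Pgd missed it with eBayes without trend, at limma adjusted p between 0.0515 and 0.0649. Over all tested genes the calls were 1150 higher and 839 lower, and 814 and 895 with quantile normalization, which moved the median log2 fold change of all genes to 0.01.

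**Figure D1:**
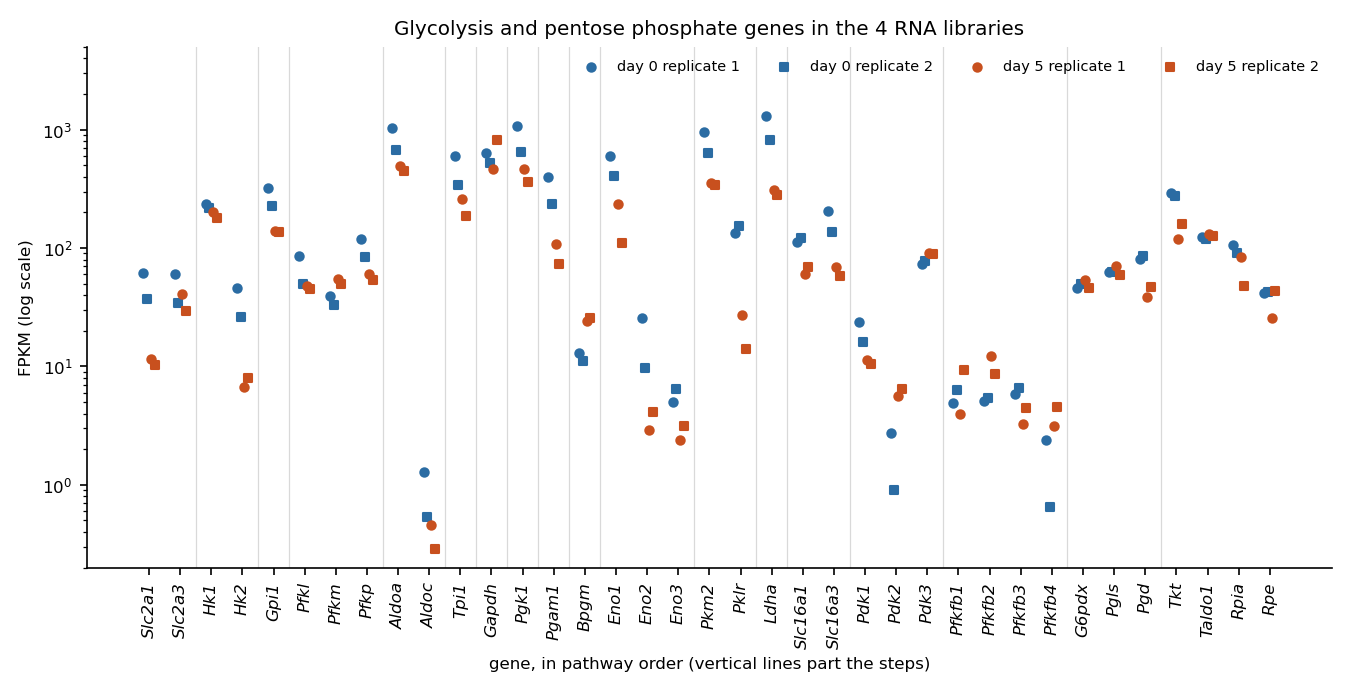
FPKM on a log axis of each gene in each RNA library, in pathway order, with day 0 in blue, day 5 in orange, circles for replicate 1 and squares for replicate 2. Genes listed at 0 (Hk3, Pgam2, Ldhb) are left out. Apart from Gapdh and Bpgm, the blue points lie above the orange ones from Aldoa to Slc16a3, while Bpgm, Pfkm, Pdk2, Pdk3, Pfkfb2, Pfkfb4 and Taldo1 have both orange points on top.

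**Figure D2:**
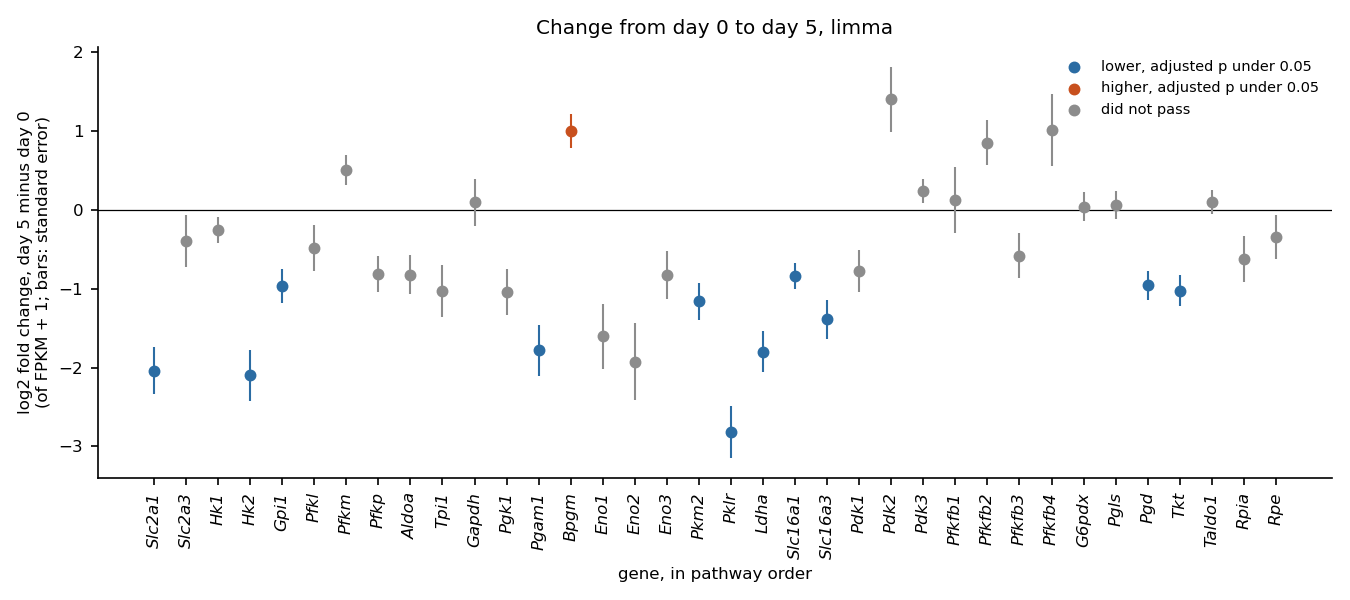
Log2 fold change from day 0 to day 5 of the 36 tested genes with its standard error from limma. Of the genes 11 passed downward (blue), 1 passed upward (orange) and 24 did not pass (grey).

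Glucose enters the cell through Slc2a1 (GLUT1), the main carrier of many dividing cells, and Slc2a3 (GLUT3), a carrier of high affinity. Slc2a1 stood at 62.0 and 36.9 FPKM on day 0 and at 11.5 and 10.3 on day 5, so both day 5 libraries were well below both day 0 libraries. Its mean fell 4.55-fold, with a log2 fold change of -2.04 ± 0.30 (SE, limma adjusted p = 0.0178). Slc2a3 stood at 60.6 and 34.4 FPKM on day 0 and at 40.9 and 29.2 on day 5, and here the days overlapped (log2 fold change -0.39 ± 0.33, limma adjusted p = 0.422). Slc2a1 made up 50.6% and 51.8% of the summed FPKM of both carriers on day 0, and 21.9% and 26.1% on day 5. For each such share the exact two-sided permutation test cannot go below p = 0.333 with 2 libraries against 2, and it gave that value for Slc2a1, so the shares are a description. The upstream region of Slc2a1 is shown because this carrier changed most among the transporters. It holds the 250 bases before the RefSeq start (chr4:119108495-119108744, GRCm38.p6, plus strand), with capitals marking the KLF motif CACACCC and the hypoxia element cores ACGTG and GCGTG, on either strand.
Slc2a1: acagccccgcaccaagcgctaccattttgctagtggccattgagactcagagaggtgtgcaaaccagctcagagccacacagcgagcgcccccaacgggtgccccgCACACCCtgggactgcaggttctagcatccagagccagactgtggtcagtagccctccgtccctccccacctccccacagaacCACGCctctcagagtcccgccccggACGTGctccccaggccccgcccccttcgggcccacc

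Hexokinases trap glucose in the cell by phosphorylation. Hk1, the form that red cells keep, stood at 237 and 217 FPKM on day 0, and day 5 had 203 and 179. The day 5 libraries lay just below, and the gene did not pass (log2 fold change -0.25 ± 0.16, limma adjusted p = 0.308). Hk2, the form of muscle, fat and many tumor cells, stood at 46.0 and 26.4 FPKM on day 0, and day 5 had 6.71 and 8.06. It fell 4.90-fold (log2 fold change -2.10 ± 0.32, limma adjusted p = 0.0196). Hk1 was thus 5.16 and 8.24 times as abundant as Hk2 at day 0, against 30.2 and 22.2 times at day 5. Summed over both, hexokinase made 283 and 244 FPKM at day 0 against 209 and 187 at day 5, a much smaller shift than that of Hk2 alone. Gpi1, which turns glucose phosphate into fructose phosphate and has no second form, stood at 321 and 229 FPKM on day 0 and at 139 and 137 on day 5, and fell (log2 fold change -0.97 ± 0.21, limma adjusted p = 0.0382).

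Phosphofructokinase commits sugar to glycolysis, and its subunits come from Pfkl (liver type), Pfkm (muscle type) and Pfkp (platelet type). No subunit passed, but they did not have the same sign. Pfkp did pass with replicate number as a block in the fit, although the labels name no batch behind that number. Pfkp had 119.7 and 83.6 FPKM on day 0 and 59.95 and 53.3 on day 5 (log2 fold change -0.81 ± 0.23, limma adjusted p = 0.0625). Pfkl had 86.5 and 49.96 on day 0 and 47.97 and 45.4 on day 5, where the higher day 5 library lay close under the lower day 0 library (-0.49 ± 0.29). Pfkm was the reverse, with 39.6 and 33.3 FPKM on day 0 and 54.7 and 49.5 on day 5, both above the day 0 libraries (0.51 ± 0.19, limma adjusted p = 0.114). The share of Pfkm in the 3 subunits was 16.1% and 19.98% at day 0 against 33.6% and 33.4% at day 5, and that of Pfkp was 48.7% and 50.1% against 36.9% and 35.98%. The 3 subunits summed to 163 and 148 FPKM on day 5 and to 246 and 167 on day 0, where the lower day 0 library lay just above day 5.

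The Pfkfb genes encode enzymes that make and break fructose 2,6-bisphosphate, the strongest activator of phosphofructokinase. All 4 were low, between 0.646 and 12.2 FPKM, and 0 of 4 passed in limma (Pfkfb2 alone had an unadjusted p under 0.05). Pfkfb2 had 5.08 and 5.42 FPKM on day 0 and 12.2 and 8.66 on day 5 (log2 fold change 0.85 ± 0.28, limma adjusted p = 0.0885). Pfkfb3, the form of many growing cells, had 5.87 and 6.57 FPKM at day 0 against 3.29 and 4.42 at day 5 (-0.58 ± 0.29). The share of Pfkfb3 in the summed level of the 4 genes was 32.1% and 34.7% at day 0, against 14.6% and 16.4% at day 5. Pfkfb4 had 2.41 and 0.646 FPKM on day 0 and 3.12 and 4.55 on day 5 (1.01 ± 0.46). Pfkfb1, a liver form, overlapped between the days, at 4.93 and 6.27 against 3.97 and 9.28 FPKM.

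**Figure D3:**
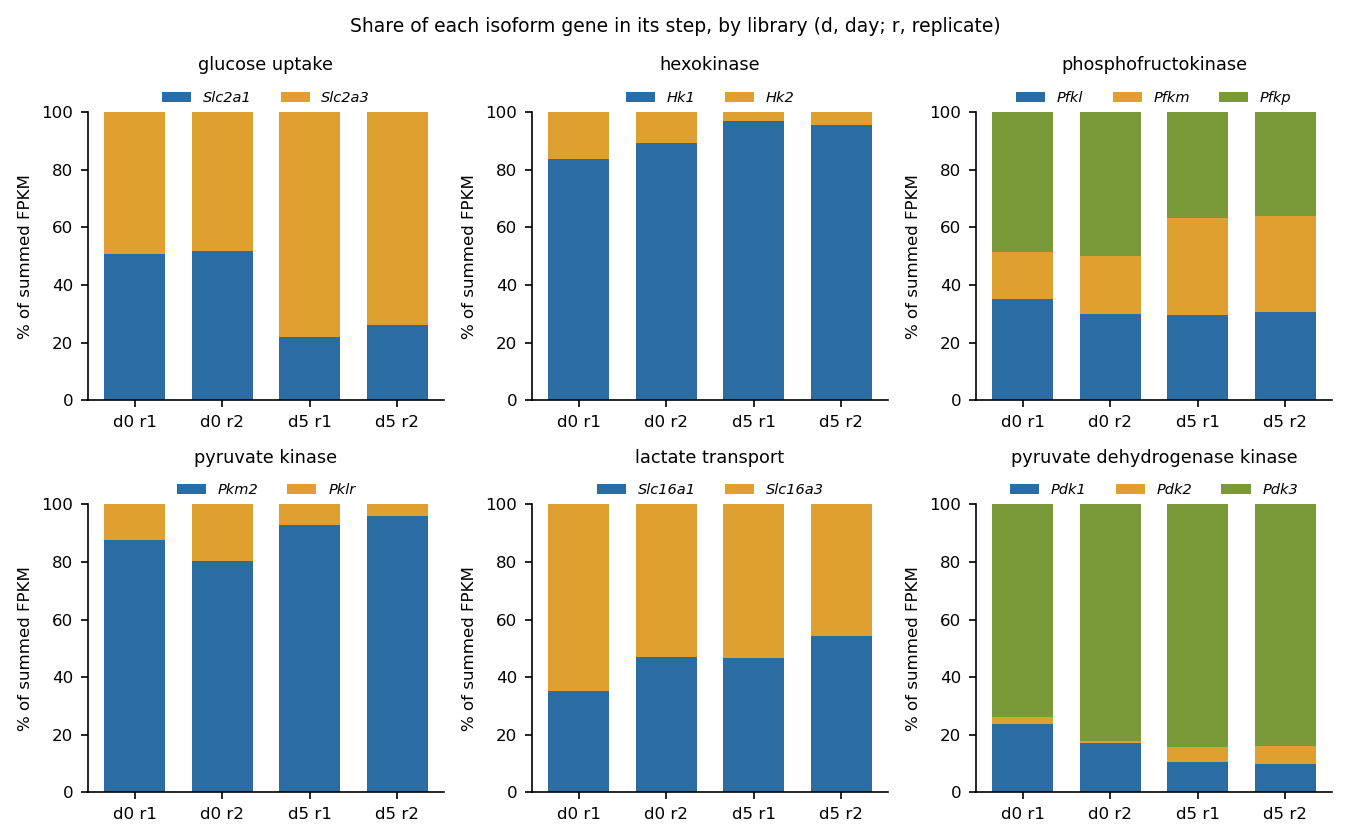
Share of each isoform gene in the summed FPKM of its step, in percent, for the 4 libraries (d, day and r, replicate). Slc2a1 goes from about 51.2% on day 0 to 24.0% on day 5, Pfkm from 18.05% to 33.5% and Pklr from 15.9% to 5.50%, as means of 2 libraries.

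The middle of the pathway is run by single abundant enzymes. Aldoa, which splits fructose bisphosphate, had 1034 and 671 FPKM on day 0 and 498 and 446 on day 5 (log2 fold change -0.82 ± 0.25, limma adjusted p = 0.0752). Tpi1, which interconverts both triose phosphates, had 601 and 338 on day 0 and 261 and 186 on day 5 (-1.03 ± 0.33, limma adjusted p = 0.0826). Pgk1, whose reaction yields ATP, had 1085 and 651 on day 0 and 463 and 359 on day 5 (-1.04 ± 0.30, limma adjusted p = 0.0644). In each of these 3 genes the days did not overlap, but the day 0 replicates stood far apart and none passed. With replicate number as a block in the fit, Tpi1 and Pgk1 passed and Aldoa did not. The labels name no batch behind that number. Gapdh, which oxidizes the triose phosphate and is often used as a reference gene, did not share this pattern. It had 632 and 526 FPKM on day 0 and 469 and 812 on day 5, so the day 5 replicates stood on both sides of day 0 (0.10 ± 0.30, limma adjusted p = 0.834). Its log2 fold change was 0.49 without day 5 replicate 1 and -0.30 without day 5 replicate 2.

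The next enzyme was among those that fell, and the gene of its side branch was the only member to pass upward. Pgam1, the phosphoglycerate mutase of most tissues, had 401 and 238 FPKM on day 0 and 108 and 73.3 on day 5, a 3.52-fold lower mean (log2 fold change -1.78 ± 0.32, limma adjusted p = 0.0270). Bpgm, the red cell enzyme that makes bisphosphoglycerate, had 13.0 and 11.02 FPKM at day 0 against 24.1 and 25.7 at day 5. Its replicates were close on both days, and its mean rose 2.07-fold (log2 fold change 0.997 ± 0.216, limma adjusted p = 0.0377). The call was lost with quantile normalization (log2 fold change 0.78, limma adjusted p = 0.0585) and with no filter (0.0792). It was also lost with replicate number as a block in the fit. The level of Bpgm relative to Pgam1 went from 0.0324 and 0.0464 on day 0 to 0.222 and 0.351 on day 5. The 250 bases before the RefSeq start of Bpgm (chr6:34476106-34476355, GRCm38.p6, plus strand) are shown because this gene alone passed upward. Capitals mark the ETS motif GAGGAA, here on the opposite strand as TTCCTC. Of the other motifs searched (E-box, hypoxia core, GATA and KLF) there was no match in this window.
Bpgm: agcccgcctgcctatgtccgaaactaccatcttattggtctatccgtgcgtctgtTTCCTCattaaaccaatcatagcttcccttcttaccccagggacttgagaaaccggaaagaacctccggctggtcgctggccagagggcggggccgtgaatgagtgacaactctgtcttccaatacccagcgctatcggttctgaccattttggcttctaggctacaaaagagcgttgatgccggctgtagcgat

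Enolase is encoded by Eno1 in most cells, Eno2 in neurons and Eno3 in muscle. Eno1 had 599 and 406 FPKM on day 0 and 238 and 109 on day 5 (log2 fold change -1.61 ± 0.41, limma adjusted p = 0.0519). Its near-identical copy Gm5506 (now Eno1b) was listed at 623 and 311 FPKM on day 0 and at 156 and 192 on day 5 (-1.34 ± 0.35, limma adjusted p = 0.0551). Reads are hard to assign between copies this alike. The ratio of Gm5506 to Eno1 differed between libraries, at 1.04 and 0.766 on day 0 and 0.654 and 1.75 on day 5, which makes the level of either one uncertain. Summed, the pair had 1222 and 717 FPKM on day 0 and 393 and 302 on day 5, and the day 5 replicates were closer together than those of Eno1 alone. In a fit of that sum, added after the values were seen, the mean was 2.79-fold lower and passed (log2 fold change -1.44 ± 0.31, limma adjusted p = 0.0361). Eno2 had 25.9 and 9.76 FPKM on day 0 and 2.92 and 4.11 on day 5 and did not pass by a small margin (-1.93 ± 0.49, limma adjusted p = 0.0506), while it did with quantile normalization (limma adjusted p = 0.0382) and a filter of 5 FPKM (0.0415). Its day 0 replicates differed 2.65-fold, and the log2 fold change was -1.27 without day 0 replicate 1 and -2.59 without day 0 replicate 2. Eno3 had 4.97 and 6.46 on day 0 and 2.39 and 3.16 on day 5 (-0.83 ± 0.31).

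Pyruvate kinase, the last ATP-yielding step, is encoded by Pkm2 (now Pkm) in most cells and by Pklr in liver and red cells. The table has 1 value per gene and so does not tell the spliced forms of Pkm2 apart. Pkm2 had 951 and 639.6 FPKM on day 0 and 356 and 342 on day 5, and its mean fell 2.28-fold (log2 fold change -1.16 ± 0.23, limma adjusted p = 0.0331). Pklr had 133 and 155 FPKM at day 0 against 27.1 and 13.97 at day 5. Its mean fell 7.01-fold, the lowest log2 fold change of the 36 tested genes (-2.82 ± 0.33, limma adjusted p = 0.0122). In the same cultures the globin genes among the markers and the heme synthesis gene Alas2 rose. Pkm2 was 7.15 and 4.13 times as abundant as Pklr on day 0, and 13.2 and 24.5 times on day 5. The day 5 replicates of Pklr differed 1.94-fold, and the log2 fold change was -3.27 without day 5 replicate 1 and -2.36 without day 5 replicate 2. RefSeq lists 2 starts of Pklr in the table used here. The upstream start is known to give the red cell form of the enzyme and the downstream start the liver form, and the gene-level FPKM does not tell them apart. Both regions (chr3:89135892-89136141 and chr3:89136373-89136622, GRCm38.p6, plus strand) are shown because Pklr changed most. Capitals mark the KLF motif CACACCC, read here as GGGTGTG on the opposite strand, and the GATA motif AGATAA. They start 68 and 35 bases before the upstream start, and neither motif occurs in the downstream window.
Pklr upstream start: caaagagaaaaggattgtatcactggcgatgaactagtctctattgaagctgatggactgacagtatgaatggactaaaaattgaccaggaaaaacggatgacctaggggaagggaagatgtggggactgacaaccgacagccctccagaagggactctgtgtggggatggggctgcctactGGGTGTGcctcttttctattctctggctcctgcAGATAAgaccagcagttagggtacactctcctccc
Pklr downstream start: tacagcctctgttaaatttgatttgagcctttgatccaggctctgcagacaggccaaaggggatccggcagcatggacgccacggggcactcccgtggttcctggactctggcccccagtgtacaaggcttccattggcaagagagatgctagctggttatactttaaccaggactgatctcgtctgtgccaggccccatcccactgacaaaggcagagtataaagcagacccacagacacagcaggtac

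Lactate dehydrogenase turns pyruvate into lactate and restores NAD for glycolysis. Ldha was the most abundant of the 40 genes in both day 0 libraries, with 1297 and 822 FPKM against 312 and 281 at day 5. Its mean fell 3.58-fold with no overlap of the days (log2 fold change -1.80 ± 0.26, limma adjusted p = 0.0173). Ldhb, the other subunit and a form common in heart, was listed at 0 throughout, and so was the testis form Ldhc. Ldha is shown with the 250 bases before its first listed RefSeq start (chr7:46845554-46845803, GRCm38.p6, plus strand), since this window alone among those printed holds the E-box CACGTG. Capitals mark the E-box and the hypoxia element core ACGTG, which the E-box contains on both strands. The E-boxes start 145 and 48 bases before the start. Among windows not printed, the second listed start of Ldha had no E-box. Slc16a1, which also fell, and Pfkfb2, Pfkfb3, Pdk2 and Pfkm, which did not pass, each had a window with one.
Ldha: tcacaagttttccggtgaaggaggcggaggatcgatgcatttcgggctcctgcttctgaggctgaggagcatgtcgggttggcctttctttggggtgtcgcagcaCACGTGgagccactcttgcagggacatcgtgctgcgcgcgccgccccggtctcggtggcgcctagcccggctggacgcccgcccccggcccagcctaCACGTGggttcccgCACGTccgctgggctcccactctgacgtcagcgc

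Lactate leaves the cell through the carriers Slc16a1 (MCT1) and Slc16a3 (MCT4), the latter typical of strongly glycolytic cells. Both fell. Slc16a1 had 113 and 122 FPKM on day 0 and 60.9 and 69.7 on day 5 (log2 fold change -0.84 ± 0.17, limma adjusted p = 0.0327). Slc16a3 had 207 and 136 on day 0 and 69.2 and 58.6 on day 5 (-1.39 ± 0.25, limma adjusted p = 0.0266). Summed, both carriers gave 320.4 and 258 FPKM at day 0 against 130.1 and 128 at day 5, a 2.24-fold lower mean. The share of Slc16a1 overlapped between the days, at 35.3% and 47.2% on day 0 and 46.8% and 54.3% on day 5.

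Pyruvate dehydrogenase kinases keep pyruvate out of the mitochondria by switching off the enzyme that feeds it into the citric acid cycle. Of 3 genes tested 0 passed in limma (Pdk1 and Pdk2 had an unadjusted p under 0.05), and they had opposite signs. Pdk1 had 23.6 and 16.01 FPKM on day 0 and 11.3 and 10.6 on day 5 (log2 fold change -0.78 ± 0.27, limma adjusted p = 0.0952), and it passed with quantile normalization (-1.03, limma adjusted p = 0.0481). Pdk2 had 2.73 and 0.911 on day 0 and 5.65 and 6.48 on day 5 (1.40 ± 0.42, limma adjusted p = 0.0700). Pdk3 was the most abundant of the 3 in every library, at 73.6 and 77.2 FPKM on day 0 and 90.02 and 88.4 on day 5 (0.24 ± 0.16). Summed, the 3 kinases stayed between 94.2 and 107 FPKM in the 4 libraries. Pdk1 gave 23.6% and 17.0% of that sum on day 0 and 10.6% and 10.03% on day 5.

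In the pentose phosphate pathway 2 of 7 tested genes (28.6%) fell and 0 rose, against 7.81% and 10.7% of all tested genes. G6pdx, the entry enzyme and first source of NADPH, had 46.4 and 50.1 FPKM at day 0 against 53.6 and 46.0 at day 5. The days overlapped (log2 fold change 0.04 ± 0.18, limma adjusted p = 0.890). Pgls, the lactonase of the next step, overlapped likewise, at 62.3 and 62.8 against 71.0 and 59.7 FPKM (0.06 ± 0.18). Pgd, phosphogluconate dehydrogenase and the other source of NADPH, had 81.0 and 86.3 FPKM at day 0 against 38.6 and 46.9 at day 5. It fell 1.96-fold with close replicates on both days (-0.96 ± 0.18, limma adjusted p = 0.0301).

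The branch without oxidation shuffles sugars of different lengths back to glycolysis. Tkt, transketolase, had 291 and 274 FPKM on day 0 and 119.7 and 159.9 on day 5, and its mean fell 2.02-fold (log2 fold change -1.03 ± 0.20, limma adjusted p = 0.0305). Taldo1, transaldolase, had 123 and 119 on day 0 and 131 and 127 on day 5, a narrow range in which the day 5 libraries were just above (0.09 ± 0.15, limma adjusted p = 0.680). Relative to Tkt, Taldo1 stood at 0.423 and 0.433 at day 0 against 1.10 and 0.797 at day 5. Rpia, the isomerase that yields ribose phosphate, had 105 and 90.9 FPKM on day 0 and 83.5 and 47.8 on day 5 (-0.62 ± 0.30, limma adjusted p = 0.183). Rpe, the epimerase of this branch, overlapped between the days, at 42.1 and 42.8 against 25.7 and 43.0 FPKM (-0.34 ± 0.28).

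In the genes of glycolysis day 0 replicate 1 lay above replicate 2 more often, and by a larger median ratio, than over all tested genes. Of 21 tested glycolysis enzymes and transporters of glucose and lactate, 18 were higher in day 0 replicate 1 than in replicate 2, with a median ratio of 1.51 on the FPKM + 1 scale. Over all tested genes 57.7% were higher in replicate 1, with a median ratio of 1.05. Genes of the pentose phosphate pathway did not share this gap, with 3 of 7 higher in replicate 1 and a median ratio of 0.991. On day 5, 16 of the 21 genes were higher in replicate 1 with a median ratio of 1.11, against 50.8% and 1.01 over all tested genes. Without day 0 replicate 1 the log2 fold changes from day 0 to day 5 were -1.47 for Ldha, -1.71 for Hk2, -0.67 for Pgk1 and -0.10 for Pfkl. Without day 0 replicate 2 the same genes had -2.13, -2.49, -1.41 and -0.88. Tkt and Slc16a1 moved less, at -0.98 and -0.89 without day 0 replicate 1.

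**Figure D4:**
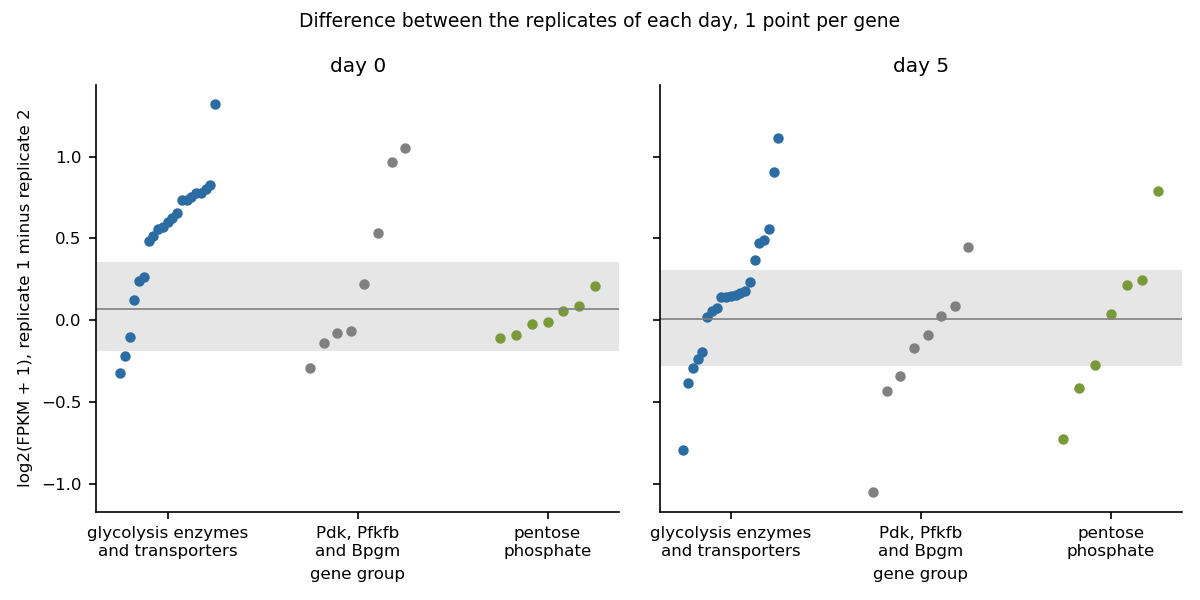
Difference of log2(FPKM + 1) between replicates 1 and 2 of day 0 (left) and day 5 (right), 1 point per tested gene, sorted within each group. The grey band spans the middle 50% of all tested genes and the line is their median, and most glycolysis genes lie above the band on day 0, while the pentose phosphate genes lie within it.

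Other genes of sugar metabolism were taken from lists fixed by name. Of 33 tested genes of glycogen and sugar entry, 2 rose and 3 fell, with a median log2 fold change of -0.26. Pygb, a glycogen phosphorylase, rose from 8.34 ± 0.716 to 18.6 ± 1.10 FPKM (SD, n = 2 in each), and Pgm2l1, which makes glucose bisphosphate, from 9.63 ± 0.575 to 25.7 ± 3.36. Galk1, galactokinase, fell from 51.9 ± 27.3 to 11.2 ± 3.68 FPKM, and Gaa, the lysosomal glucosidase, from 32.2 ± 6.14 to 16.3 ± 1.78. Fbp2, a fructose bisphosphatase that opposes phosphofructokinase, had 8.79 and 10.5 FPKM on day 0 and was listed at 0 in both day 5 libraries. It passed the filter only through day 0, so its call is no separate support. Of 30 tested genes of pyruvate entry and the citric acid cycle, 1 rose and 3 fell (median -0.31). Pdp1, the phosphatase that undoes the work of the Pdk kinases, rose from 1.40 ± 0.214 to 6.27 ± 1.14 FPKM (log2 fold change 1.59, limma adjusted p = 0.0310). Idh3a, an isocitrate dehydrogenase subunit, fell from 190.1 ± 6.21 to 81.5 ± 0.758, and Mdh2 and Got2, both of the malate shuttle, had log2 fold changes of -0.86 and -0.98. These counts, 15.2% and 13.3% of the genes tested in both directions together, lie under the 18.5% of all tested genes. By direction, 9.09% and 10.0% fell, against 7.81% of all tested genes, and 6.06% and 3.33% rose, against 10.7%.

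Of 14 tested genes of the wider pentose phosphate and NADPH list, 4 (28.6%) fell and 0 rose (median -0.37), against 7.81% lower among all tested genes. They were the malic enzymes Me2 (134 ± 18.8 to 41.6 ± 0.0779 FPKM, SD, n = 2 in each) and Me1 (33.3 ± 0.946 to 15.95 ± 1.68), the folate enzyme Mthfd1 (88.8 ± 9.78 to 28.0 ± 1.43) and Gsr, glutathione reductase (65.2 ± 1.09 to 34.2 ± 4.23). Gsr lies outside the naming rule and was added after its value was seen. Of 7 tested genes among other isoforms of the glycolytic steps and other carriers of the families, Slc16a10, an aromatic amino acid carrier, alone passed. It rose (10.8 ± 1.44 to 34.4 ± 3.84 FPKM), which makes 14.3% of those tested, against 10.7% higher among all tested genes. The other forms Hkdc1, Pgk2, Gapdhs and Slc16a7 were listed at 0 in all 4 libraries.

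RefSeq promoters (GRCm38.p6) were found for 39 of the 40 genes, all but Slc2a3, with 60 windows in all, some of which overlap. In the 250 bases before the start, 42 of 60 windows, or 70.0%, held the hypoxia element core (ACGTG or GCGTG, either strand). The share was 57.4% over 9541 windows of tested genes and 38.6% over all 32851 windows. It was 66.7% of 15 windows of genes that fell and 71.8% of 39 windows of tested genes that did not pass. The E-box CACGTG was in 10.0% of the windows, against 8.69% for tested genes and 6.02% over all windows. The GATA motif AGATAA was in 11.7%, against 5.85% and 9.99%, with several windows from the same gene (Pfkm and Pfkfb1). It was in 6.67% of windows of genes that fell and 15.4% of those of tested genes that did not pass. The KLF motif CACACCC was in 11.7%, against 7.10% and 6.93%, and the ETS motif GAGGAA in 23.3%, against 21.3% and 23.3%. A match describes the letters of the window and is not a bound site.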

How the data were processed

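RNA-seq of MEL cells was made from 2 biological replicates on day 0 and 2 on day 5, per the labels. The deposited values are FPKM per gene, computed by the authors. Per the submitters' processing notes the tool was Bowtie and the build mm9. Quantifier and annotation are not given in the sources used here. FPKM hold no read counts, so no count model was used and precision rests on the 2 replicates. The filter kept 10736 genes that reached 1 FPKM in 2 or more of the 4 libraries; they were compared as log2(FPKM + 1) by limma 3.58.1 in R 4.3.3 (intercept and day, eBayes with trend, two-sided, Benjamini-Hochberg threshold 0.05). A log scale with a pseudocount of 1 understates changes of low genes. The fit was tested on simulated data. There it recovered 21 of 100 genes changed by 1 log2 unit and 89 of 100 changed by 2, and called 10 unchanged genes. Only those genes were changed, all picked from the better expressed ones, and the noise was normal with the fitted variances. The data had 1989 calls, and with fewer changed genes the adjusted threshold is stricter. The recovered shares are thus not those of the real fit. All 40 members were named, and in other lists up to 3 called genes a direction with the largest log2 fold change. Members and lists were chosen with earlier results of these data known, so lists are described by counts and a median. Replicate numbers came from the titles. The mm9 region files (PU.1 ChIP-seq, DNase-seq, ChIA-PET) were not used here, since gene positions on that build were not at hand. Promoter letters are from RefSeq.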

Additional observations from a re-analysis of the deposited data

How the results depend on the processing

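Every called gene among the 36 kept its direction in all settings run (pseudocount 0.1, no filter, filter of 5 FPKM, quantile normalization, globin and mitochondrially encoded genes removed, eBayes without trend, replicate block, each library left out). With no filter 120 genes were higher and 117 lower over all genes, and 0 and 0 of the 36 in limma. Without trend 6 of the 36 were lower. The causes were not tested. With the replicate block 15 were lower and 0 higher, since Pfkp, Tpi1, Pgk1 and Eno1 passed and Bpgm did not. The deviations of same-numbered libraries correlated at 0.0480 over 10736 genes. With so few libraries this cannot show whether same-numbered libraries shared a batch, and the labels name none. Quantile normalization moved the median of all genes from 0.15 to 0.01 and the split from 1150 higher and 839 lower to 814 and 895. It left 10 of the 36 lower and 0 higher, with Gpi1, Pkm2, Tkt and Bpgm no longer past the threshold and Eno2 and Pdk1 past it, and turned Hk1 to 0.0027 and Pfkfb1 to -0.19.

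With 1 library left out, the lone library of its day was assumed to vary like the other day. Calls over all genes then ranged from 0 to 2 higher and 0 to 11 lower, and those of the 36 stayed at 0 in either direction, with fewer samples in each fit. Members that did not pass and changed sign had log2 fold changes of -0.79 to 0.0062 (Slc2a3), -0.30 to 0.49 (Gapdh), -0.40 to 0.65 (Pfkfb1), -0.067 to 0.15 (G6pdx), -0.066 to 0.18 (Pgls) and -0.70 to 0.019 (Rpe). With Adpgk in the sum, the gain of Hk1 in its step was 5.56 percentage points instead of 9.77, by construction, as Adpgk adds to the sum. The alternative of a wider window around start sites was not run, as positions on mm9 were not at hand.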
